A study of Mus musculus with 2 samples.

Results

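The genes described here build and regulate MHC class I in the mouse gastric cancer line YTN16. They are the transactivator Nlrc5, the light chain B2m, the heavy chains H2-K1, H2-D1, H2-T23 and H2-Q4, and the peptide-loading genes Tap1, Tap2, Tapbp and Tapbpl. The 10 genes were picked by symbol from the 45777 genes of the deposited table. They were picked with earlier results of these data known, and all 10 reached 1 CPM (a count relative to the scaled total of its library) in at least 1 library. The series compares 1 poly(A) RNA library of YTN16 cells that carry a control short hairpin RNA (shControl, genotype labelled WT) with 1 library of the same line that carries a hairpin against Gas6 (shGas6, genotype labelled Gas6 knockdown). It was set up around GAS6/AXL signalling and the response to immunotherapy. The labels do not say whether a single clone or a mixed culture was sequenced, or how many hairpin sequences were used. With 1 library per group there is no spread between cultures, so no p-value is given. Every bracketed range is a 95% interval that covers counting error only.

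MHC class I molecules carry peptides from inside the cell to its surface, where CD8+ T cells read them. The polymorphic heavy chain pairs with beta-2 microglobulin and, in the endoplasmic reticulum, joins the transporter TAP1/TAP2 and the bridging chaperone tapasin until a peptide is bound. NLRC5 is a member of the NLR family that enters the nucleus and acts at class I promoters without binding DNA itself. It works through proteins bound to a conserved block of sequence, the SXY module. Loss of class I from tumour cells is one known way to escape T cells.

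The libraries held 50756676 and 51807140 counts. Gas6, the target of the hairpin, went from 48.8 CPM in shControl to 14.1 CPM in shGas6, which is 29.0% of the control level (26.6% to 31.5%). Of the epithelial keratins, Krt19 stood at 2107 and 2974 CPM, Krt8 at 1793 and 2637 CPM and Krt18 at 424 and 1016 CPM. Krt7 was at 2.28 and 21.2 CPM, Cldn3 at 8.52 and 43.3 CPM and Cdh1 at 112 and 218 CPM. Epcam, Cldn4 and Esrp1 were below 1 CPM and Cldn7 had 0 counts in both libraries. The summed level of 18 leukocyte markers was 6.35 CPM in shControl and 5.22 CPM in shGas6, with Cd68 giving 4.82 and 4.45 CPM of it. Ptprc, which encodes CD45, was at 0.452 and 0.155 CPM, and Tyrobp, Cd3d and Cd8a had 0 counts in both. Summed fibroblast markers were at 1.95 and 2.65 CPM, and summed endothelial markers at 13.9 and 4.47 CPM, the larger part from Cdh5. The 10 epithelial markers summed to 4447 CPM in shControl and 6910 CPM in shGas6. The part of these differences in the results below was not tested. In bulk RNA, fewer expressing cells and less RNA per cell cannot be told apart.

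Of the 10 class I genes, 9 had lower levels in shGas6 and 1 had a higher level. At least 2-fold lower were 3 genes, Nlrc5, B2m and H2-Q4, and none was at least 2-fold higher. Over all 13367 measured genes, 6.19% were lower by that much, 8.64% were higher by that much and 50.9% had a log2 ratio below 0. The median log2 ratio was -0.70 over the 10 genes and -0.01 over all measured genes. At the milder mark of 1.5-fold, 7 of the 10 were lower, against 12.6% of all measured genes. By 4-fold or more, 1 of the 10 was lower, against 2.56% of all measured genes, and 0 were higher, against 3.16%. Whole counting intervals lay past 2-fold lower for 3 of the 10 and for 4.46% of all measured genes. They lay wholly below a fold of 1 for 9 of the 10 genes and for 40.3% of all measured genes. At this depth the intervals are narrow, and many genes differ by more than counting error.

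**Figure D1:**
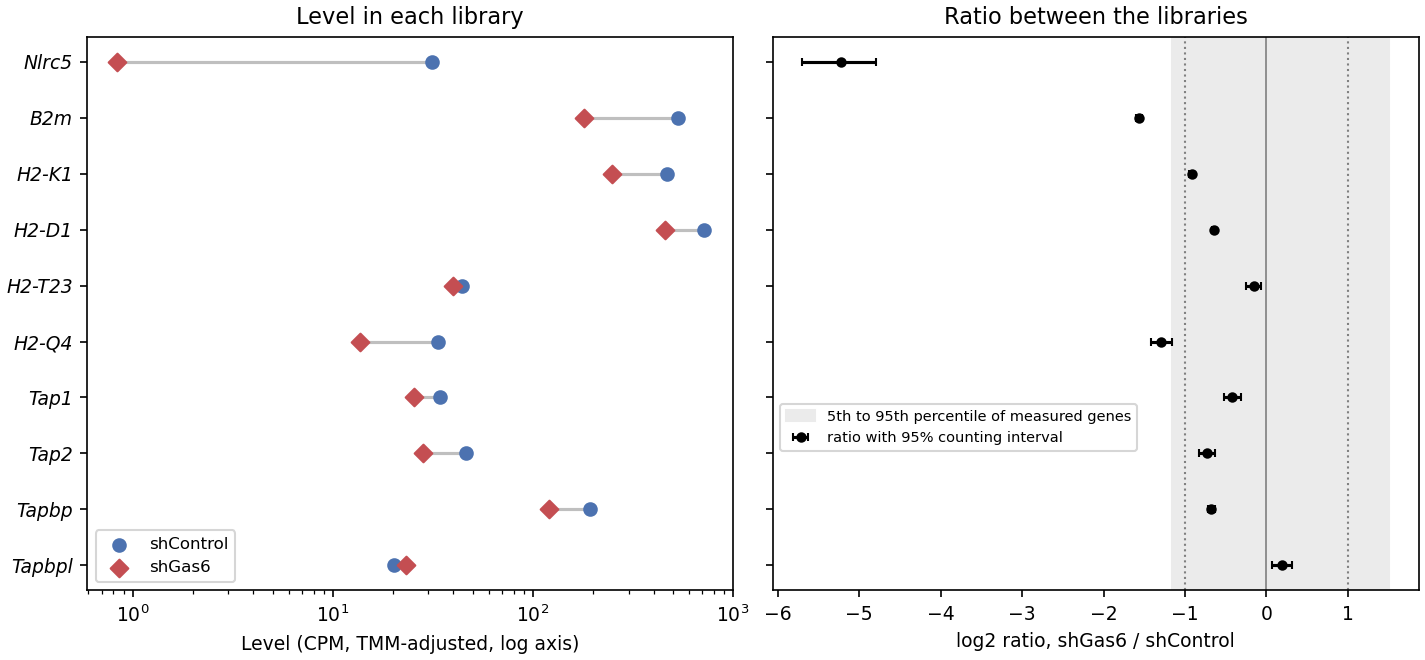
Level of each class I gene in each library (left, CPM on a log axis) and log2 ratio of shGas6 over shControl (right, points with 95% counting intervals, dotted lines at 2-fold). Nlrc5 stands apart at 31.2 and 0.831 CPM. The grey band spans the 5th to 95th percentile of all measured genes (-1.17 to 1.51).

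Nlrc5 differed most between the libraries. The gene (NCBI gene 434341, chromosome 8, 94434335 to 94527272, GRCm38) had 1584 counts in shControl and 43 in shGas6. That corresponds to 31.2 and 0.831 CPM, a 37.5-fold lower level in shGas6 (27.7 to 52.0), or 2.67% of the control. Only 0.382% of the measured genes had a lower log2 ratio than Nlrc5 (-5.21). In TPM, the authors' length-corrected unit, it was the least abundant of the 10 genes in both libraries, at 8.16 and 0.221 TPM. RefSeq places the long non-coding RNAs 9330175E14Rik (16 and 3 counts) and Gm51584 (0 in both) and the microRNA Mir7072 (3 and 0) over parts of the gene. Their counts were small beside those of Nlrc5 in shControl.

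None of the 10 genes nearest to Nlrc5 differed by as much. These measured neighbours on chromosome 8 had a median log2 ratio of -0.32, with 1 gene lower and 2 genes higher by 2-fold or more. Before Nlrc5 on the chromosome, Herpud1, an endoplasmic reticulum stress gene, was 89.9 kb away between midpoints, at 333 CPM in shControl against 746 CPM in shGas6. Nup93, a nuclear pore gene, was at 114 and 91.4 CPM. Slc12a3, a renal salt transporter gene, was at 1.14 and 0.387 CPM and was the 1 neighbour lower by 2-fold. LOC115486954 was at 5.09 and 4.81 CPM, and the pseudogene Ap3s1-ps2, the nearest on this side, at 3.99 and 2.03 CPM. On the other side, Cpne2 was at 128 and 103 CPM, Fam192a at 54.2 and 47.2 CPM, Rspry1 at 59.5 and 41.9 CPM and Arl2bp at 158 and 124 CPM, whereas Pllp was at 11.2 and 35.7 CPM. The 50 nearest measured genes had a median log2 ratio of -0.19, and with that subtracted Nlrc5 stood at -5.02.

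B2m, the light chain shared by all class I molecules of this set, had the next largest difference of the 10 genes. It went from 27000 counts in shControl to 9273 in shGas6, that is from 531 to 179 CPM (NCBI gene 12010, chromosome 2, 122147687 to 122153082). Its level in shGas6 was 2.96-fold lower (2.89 to 3.03), and 3.45% of measured genes had a lower log2 ratio than its -1.57. The 5 measured genes before it on the chromosome all had slightly positive log2 ratios, from 0.23 for Spg11 to 0.30 for Ctdspl2, with Wdr76, Casc4 and Eif3j1 between these. After it, Sord, which encodes sorbitol dehydrogenase, was at 270 and 114 CPM, 2.38-fold lower (2.30 to 2.45), and Duoxa1 was at 1.55 and 0.155 CPM. Duox2 (12.8 and 12.2 CPM) and Duoxa2 (15.4 and 14.8 CPM) had intervals that included a fold of 1, and Shf was at 13.3 and 21.7 CPM. B2m lies inside the annotated span of Patl2, which had 0 counts in both. The 50 genes nearest to B2m had a median of 0.11.

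The classical heavy chains, which present peptides to CD8+ T cells, were lower by less than B2m. H2-K1 (NCBI gene 14972, chromosome 17, 33996012 to 34000619) went from 467 CPM in shControl to 248 CPM in shGas6, 1.89-fold lower (1.85 to 1.93). H2-D1 (NCBI gene 14964, chromosome 17, 35263094 to 35267497) measured 715 and 458 CPM, 1.56-fold lower (1.53 to 1.59). Their log2 ratios of -0.91 and -0.64 had 6.85% and 11.05% of the measured genes below them. The counting intervals of the 2 folds did not overlap, so in these libraries H2-K1 differed by more than H2-D1 beyond counting error. H2-K1 made up 34.2% of all class I heavy-chain counts in shControl (exact binomial interval 33.9% to 34.6%) and 30.7% in shGas6 (30.2% to 31.1%). The share of H2-D1 was 52.4% (52.0% to 52.7%) and 56.7% (56.2% to 57.2%).

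The non-classical heavy chains differed by unlike amounts. H2-Q4 (NCBI gene 15015, chromosome 17, 35379617 to 35384674) went from 1700 counts in shControl to 708 in shGas6, that is from 33.4 to 13.7 CPM, 2.44-fold lower (2.24 to 2.67). H2-T23, which encodes Qa-1, the ligand through which NKG2A and CD94 on natural killer cells and T cells recognise a target, had 2250 and 2052 counts (NCBI gene 15040, chromosome 17, 36029977 to 36032701). Its level of 44.3 and 39.7 CPM was 1.12-fold lower (1.05 to 1.18), the smallest difference of the 10 genes, and 36.9% of measured genes had a lower log2 ratio. The long non-coding RNA A930015D03Rik, which spans H2-T23, had 5 and 19 counts. H2-Q4 and H2-T23 stood on either side of H2-K1 and H2-D1 in size of difference.

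Promoter windows are shown for the light chain and the 4 heavy chains, since these genes were lower by different amounts and 3 of the windows share a motif arrangement. RefSeq (GRCm38.p6) had a window for 7 of the 10 genes, and Nlrc5, Tap2 and Tapbpl had none. Each window runs 5′ to 3′ on the gene's strand from 250 bases before the annotated start to 50 bases after it. H2-K1 has 2 annotated starts, of which the first listed is used. Capitals mark matches, on either strand, to 6 motifs: AAANNGAAA and GAANNGAAA (cores of interferon-stimulated response elements), TTCNNNGAA (the GAS element of interferon-gamma signalling), TGACG (the core of a cAMP-response element, as in the X2 box), ATTGG (the Y box core) and GGGNNTTCC (an NF-kB site form). GAANNGAAA was added after the windows had been read. Matches of different motifs did not overlap.
B2m (chr2:122147437-122147736, plus strand): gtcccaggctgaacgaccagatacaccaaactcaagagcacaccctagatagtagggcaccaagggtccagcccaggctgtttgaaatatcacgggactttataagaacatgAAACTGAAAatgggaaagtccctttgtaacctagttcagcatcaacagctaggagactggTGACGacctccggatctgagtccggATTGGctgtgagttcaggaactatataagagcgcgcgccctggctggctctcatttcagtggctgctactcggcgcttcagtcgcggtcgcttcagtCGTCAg
H2-K1 (chr17:34000298-34000597, minus strand): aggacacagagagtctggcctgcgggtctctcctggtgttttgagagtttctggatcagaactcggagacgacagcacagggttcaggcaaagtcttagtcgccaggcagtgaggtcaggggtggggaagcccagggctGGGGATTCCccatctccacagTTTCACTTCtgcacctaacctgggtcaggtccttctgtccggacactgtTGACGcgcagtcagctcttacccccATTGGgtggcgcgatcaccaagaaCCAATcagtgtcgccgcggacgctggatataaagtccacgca
H2-D1 (chr17:35262844-35263143, plus strand): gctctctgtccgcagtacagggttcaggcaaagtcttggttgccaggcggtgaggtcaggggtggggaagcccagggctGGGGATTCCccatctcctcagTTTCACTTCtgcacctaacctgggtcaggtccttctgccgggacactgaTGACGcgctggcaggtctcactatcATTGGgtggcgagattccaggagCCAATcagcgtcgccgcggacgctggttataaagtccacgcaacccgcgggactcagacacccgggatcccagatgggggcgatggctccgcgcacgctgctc
H2-Q4 (chr17:35379367-35379666, plus strand): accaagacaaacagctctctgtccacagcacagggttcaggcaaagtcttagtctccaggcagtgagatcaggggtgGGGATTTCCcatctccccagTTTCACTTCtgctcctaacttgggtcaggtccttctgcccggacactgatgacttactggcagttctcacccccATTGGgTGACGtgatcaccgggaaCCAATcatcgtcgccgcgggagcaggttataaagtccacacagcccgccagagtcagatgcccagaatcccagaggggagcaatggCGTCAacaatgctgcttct
H2-T23 (chr17:36032652-36032951, minus strand): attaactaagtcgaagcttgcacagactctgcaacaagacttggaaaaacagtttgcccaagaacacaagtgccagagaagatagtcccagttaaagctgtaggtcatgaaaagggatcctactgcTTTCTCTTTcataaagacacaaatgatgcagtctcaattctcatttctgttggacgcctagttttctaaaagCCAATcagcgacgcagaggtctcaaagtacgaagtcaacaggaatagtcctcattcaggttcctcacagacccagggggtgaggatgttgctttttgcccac

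In B2m, H2-K1 and H2-D1, a TGACG was followed by an ATTGG with exactly 20 bases between them. Counted from the annotated start used for each window, the TGACG began at base -78 in B2m, -41 in H2-K1 and -101 in H2-D1. The H2-K1 window lies wholly inside the annotated span of that gene (33996012 to 34000619). Its -41 is therefore not directly comparable with the other positions. The 20-base spacing was noticed in the windows and then counted. It occurred in 31 of 32851 RefSeq windows on either strand (0.0944%), belonging to 27 genes, of which 3 were among the 10 class I genes and another was H2-M3, a class I gene that presents formylated peptides. TGACG was in 20.8% of all windows and ATTGG in 37.4%. In H2-Q4, a TGACT, which differs from TGACG in its last letter, was followed by 20 bases and an ATTGG starting at base -79. A separate TGACG match began at -73, after that ATTGG. H2-T23 held an ATTGG on the opposite strand and no TGACG. H2-K1, H2-D1 and H2-Q4 each held a GGGNNTTCC match, which 5.82% of all windows did, followed by a GAANNGAAA match on the opposite strand (7.52% of windows). B2m and H2-T23 held the AAANNGAAA form instead (10.55% of windows), and none of the 7 windows held TTCNNNGAA (8.30% of windows). These are matches of letters, and binding was not measured.

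Per length, the balance between light chain and heavy chains differed between the libraries. The sum of the 4 heavy chains was 1478 TPM against 1227 TPM for B2m in shControl, and 921 TPM against 429 TPM in shGas6. The heavy-chain level per B2m was thus 1.20 in shControl and 2.15 in shGas6. With every class I heavy chain of the table that the lists hold, the values were 1.30 and 2.28. In shControl the order of the 10 genes in TPM began with B2m at 1227, H2-D1 at 816 and H2-K1 at 558. In shGas6 it began with H2-D1 at 541, followed by B2m at 429 and H2-K1 at 302. Further down, H2-Q4 and Tap2 were level in shControl (both 37.0 TPM), as were Tap2 and Tapbpl in shGas6 (23.1 and 22.7 TPM), with overlapping counting intervals. In shGas6 the intervals of Tap1 (17.7 TPM) and H2-Q4 (15.6 TPM) also overlapped.

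**Figure D2:**
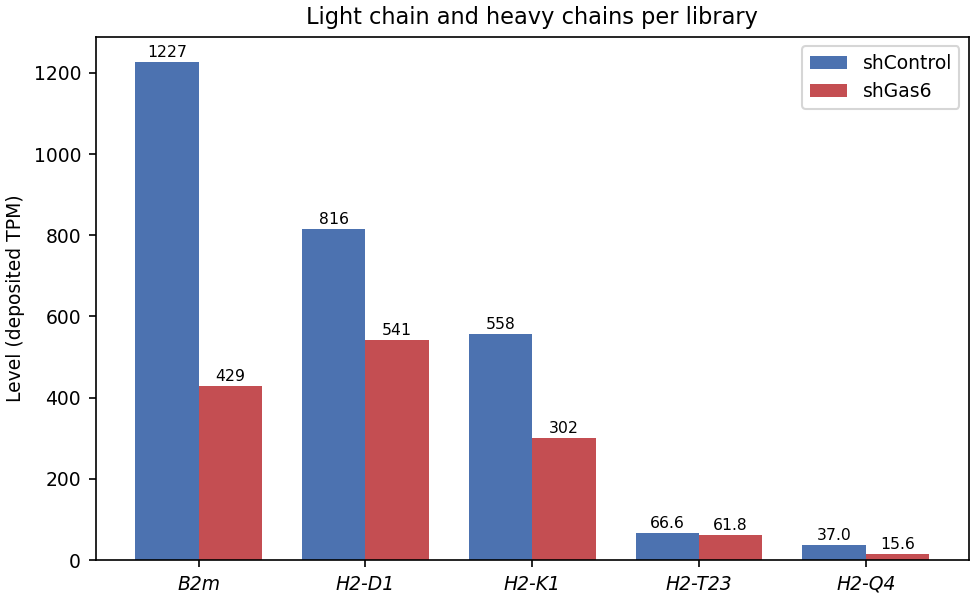
Deposited TPM of the light chain B2m and of the 4 heavy chains in shControl and shGas6, with 1 library per bar. B2m is the highest bar in shControl (1227) and lies below H2-D1 in shGas6 (429 against 541).

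Class I heavy chains are alike in sequence, so reads can be assigned to the wrong gene. Of the 100-base words of the longest coding GENCODE transcript (release M21), 0% were also found in a transcript of another gene for H2-K1, 4.64% for H2-D1, 7.28% for H2-T23 and 2.66% for H2-Q4. With 50-base words the shares were 8.79%, 14.3%, 28.8% and 24.3%. These shares count any other gene, also genes outside class I. Among those, Rab33b held 5.48% of the 50-base words of H2-T23 and Olfr1238 held 4.07% of those of H2-Q4. For B2m and Nlrc5 they were 0% at both lengths. The read length is not given in the sources used here, and how the authors treated reads with several matches is not stated. Summed over the 4 heavy chains, which does not depend on how reads were split among them, counts went from 64014 to 39255, 1.66-fold lower (1.64 to 1.68). Over all 28 class I heavy-chain genes of the table named in the lists the sum was 1.69-fold lower (1.67 to 1.71). Both sums still depend on how reads were split with genes outside them. H2-T-ps, for example, held 12.9% of the 50-base words of H2-T23 and had 41 and 0 counts.

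Other class I heavy chains came from a list chosen with earlier results known. Of 24 in the table, 7 were measured, 3 of them lower and none higher by 2-fold or more, and the 7 had a median log2 ratio of -0.61. Shares over all measured genes were 6.19% lower and 8.64% higher. H2-T22, a ligand of some gamma delta T cell receptors, went from 75.1 CPM in shControl to 31.6 CPM in shGas6, 2.38-fold lower (2.24 to 2.52). Its close relative H2-T10 was at 7.42 and 1.68 CPM, 4.41-fold lower (3.48 to 5.63), and H2-Q6 at 4.46 and 1.86 CPM, 2.41-fold lower (1.89 to 3.09). H2-M3 was at 5.68 and 3.71 CPM and H2-Q1 at 7.08 and 4.64 CPM, each within 2-fold. The counting intervals of H2-K2 (2.56 and 2.98 CPM) and H2-T24 (1.28 and 1.35 CPM) included a fold of 1. A further 10 of the 24 had 0 counts in both libraries.

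Both subunit genes of the TAP transporter, which pumps peptides into the endoplasmic reticulum, had lower RNA levels in shGas6. Tap1 (NCBI gene 21354, chromosome 17, 34187556 to 34197225) went from 34.1 CPM in shControl to 25.5 CPM in shGas6, 1.34-fold lower (1.25 to 1.44). Tap2 (NCBI gene 21355, chromosome 17, 34204479 to 34216321) was at 46.4 and 28.1 CPM, 1.65-fold lower (1.55 to 1.77). Neither reached 2-fold, and the interval of Tap2 lay wholly beyond that of Tap1. The genes are neighbours, with the immunoproteasome gene Psmb8 between them and Psmb9 on the far side of Tap1. Psmb8 was at 38.1 and 18.1 CPM, 2.10-fold lower (1.94 to 2.28), and Psmb9 at 4.17 and 1.22 CPM, 3.42-fold lower (2.57 to 4.61).

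Tap1 and Psmb9 are transcribed away from each other, with annotated starts 226 bases apart, and their promoter windows share 275 bases. The Tap1 window is shown because 1 stretch lies before both genes, whose differences were 1.34-fold and 3.42-fold.
Tap1 (chr17:34187306-34187605, plus strand): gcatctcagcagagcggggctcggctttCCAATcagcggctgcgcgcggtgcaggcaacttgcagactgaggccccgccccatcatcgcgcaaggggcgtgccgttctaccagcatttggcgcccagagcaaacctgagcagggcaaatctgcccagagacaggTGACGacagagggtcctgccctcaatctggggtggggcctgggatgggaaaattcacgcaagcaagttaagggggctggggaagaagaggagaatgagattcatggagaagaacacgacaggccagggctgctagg

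The window held an ATTGG on the opposite strand, starting at base -222 from the Tap1 start, and a TGACG at -86, with no match to the other motifs. The intervals of the Tap1 and Psmb9 folds did not overlap.

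Tapasin and its relative differed in direction. Tapbp, which encodes tapasin, went from 191 CPM in shControl to 120 CPM in shGas6, 1.60-fold lower (1.55 to 1.65, NCBI gene 21356, chromosome 17, 33919478 to 33929290). Tapbpl, which encodes TAPBPR, a peptide editor that works apart from TAP, was at 20.3 and 23.1 CPM (NCBI gene 213233, chromosome 6, 125223927 to 125231860). It was the 1 gene of the 10 with a higher level in shGas6, 1.14-fold (1.05 to 1.24), and 65.7% of measured genes had a lower log2 ratio. The long non-coding RNA gene Gm19412 overlaps the start of Tapbp and had 37 and 38 counts. Another, E130112N10Rik, overlaps Tapbpl by 592 bases and had 18 and 60 counts, against 1030 and 1197 for Tapbpl. Tapbpl is the 1 loading gene of the set outside chromosome 17.

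**Figure D3:**
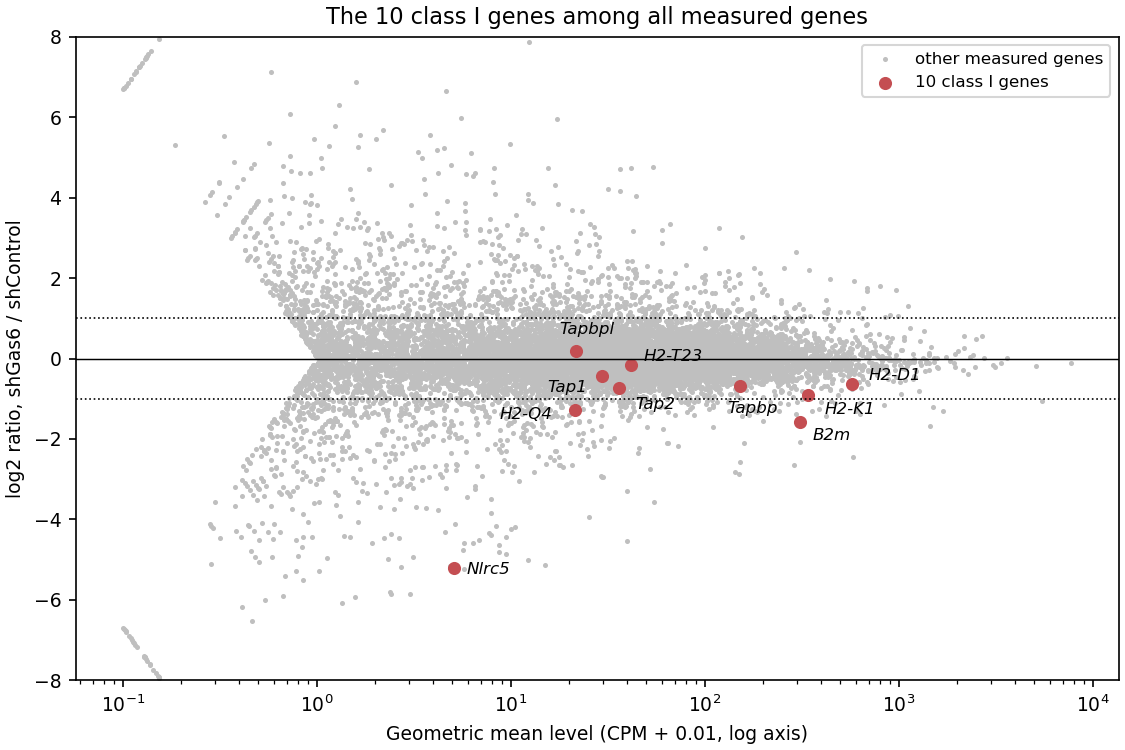
Log2 ratio of shGas6 over shControl against the geometric mean level (CPM plus 0.01, log axis) for all 13367 measured genes, of which 18 lie beyond the axis limits. Dotted lines mark 2-fold. B2m, H2-K1 and H2-D1 lie at the abundant end and Nlrc5, at -5.21, near the lower edge.

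On chromosome 17, all 7 genes of the set that lie in the MHC were lower, and 46 of the 93 measured genes in the same stretch had log2 ratios below 0. Between the start of Tapbp and the end of H2-T23 (33919478 to 36032701), the median log2 ratio of the 93 genes was 0.00. The 7 genes had a median of -0.68. Of the 78 genes in this stretch that belong to no list, 5 were lower and 4 higher by 2-fold or more, and the median was 0.03. Among all measured genes, 6.19% were lower and 8.64% higher by that much. The 10 measured neighbours of H2-K1 had a median of 0.13 and none of them was past 2-fold. The 10 of H2-D1 had a median of 0.03, with H2-Q4 (-1.29) and H2-Q6 (-1.26) lower and Tnf (3.09) higher by 2-fold or more. The 10 of H2-T23 had a median of -0.01, and 2 of them were lower by 2-fold or more. These were its closest neighbour H2-T22, with a log2 ratio of -1.25, and H2-T10 with -2.13, both on the same side. On the other side, H2-T24 had a log2 ratio of 0.08 and Gnl1 of -0.09.

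**Figure D4:**
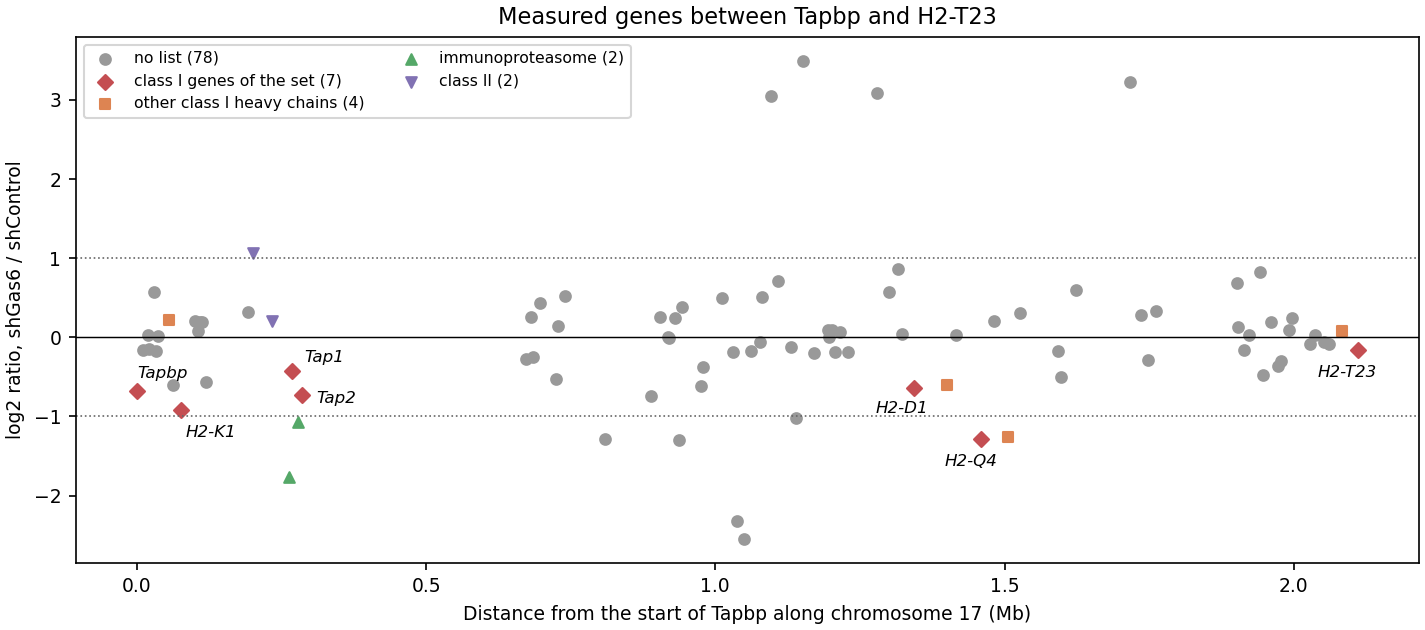
Log2 ratio of shGas6 over shControl for the 93 measured genes between Tapbp and H2-T23, by distance of the gene's lower coordinate from that of Tapbp (Mb). The 7 class I genes of the set (diamonds) all lie below 0, while 43 of the 78 genes of no list (grey) lie above it.

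RNA levels of genes of peptide supply differed by branch. All 5 genes of the immunoproteasome and the proteasome activator PA28, which favour class I peptides, were lower by at least 1.5-fold, and 2 of them, Psmb8 and Psmb9, by at least 2-fold. Among all measured genes, 12.6% and 6.19% were lower by these amounts. Psmb10, the third catalytic subunit, was at 43.3 and 22.99 CPM, Psme1 at 117 and 71.2 CPM and Psme2 at 140 and 80.2 CPM. The standard subunits Psmb5, Psmb6 and Psmb7, which these catalytic subunits replace, had folds of 1.20, 1.06 and 1.08 lower, at a median log2 ratio of -0.11 against -0.91 for the 5. Among 12 chaperones and trimming enzymes, 2 were lower and none higher by 2-fold or more, with a median of -0.10. Shares over all measured genes were 6.19% lower and 8.64% higher. Erap1, the aminopeptidase that trims class I peptides, measured 59.3 and 26.2 CPM, 2.26-fold lower (2.12 to 2.41). The peptidases Lnpep (25.6 and 40.4 CPM) and Tpp2 (126 and 186 CPM) of the same list were 1.58-fold (1.47 to 1.69) and 1.48-fold higher (1.43 to 1.53). Bcap29, a protein of the endoplasmic reticulum membrane, measured 45.5 and 20.01 CPM, 2.28-fold lower (2.11 to 2.45). The general folding factors Calr (853 and 856 CPM), Canx (606 and 693 CPM) and Pdia3 (517 and 492 CPM), which assist class I assembly among many other proteins, had log2 ratios of 0.00, 0.19 and -0.07.

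Among 19 measured factors that act at class I promoters, none was past 2-fold in either direction. Over all measured genes, 6.19% were lower and 8.64% higher by that much. Of the 19, 8 had log2 ratios below 0 and 11 above it, with a median of 0.12. Irf1, a transcription factor that binds class I promoters, was at 57.4 and 74.7 CPM, 1.30-fold higher (1.24 to 1.37). Rfx5, a subunit of the complex through which NLRC5 reaches DNA, was at 20.1 and 23.2 CPM, Rfxank at 30.5 and 44.6 CPM and Rfxap at 22.1 and 18.2 CPM. Irf9, a factor of interferon signalling, was at 53.1 and 78.6 CPM. Rela was at 65.5 and 94.4 CPM and Sp1 at 86.9 and 134 CPM. Usf1 was at 47.5 and 33.5 CPM, Nfya at 41.8 and 33.3 CPM and Creb1 at 58.2 and 47.3 CPM. Their relatives in the list were higher in shGas6, with Nfyb at 27.5 and 35.1 CPM and Nfyc at 46.3 and 58.8 CPM. Atf1 was at 87.3 and 119 CPM.

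**Figure D5:**
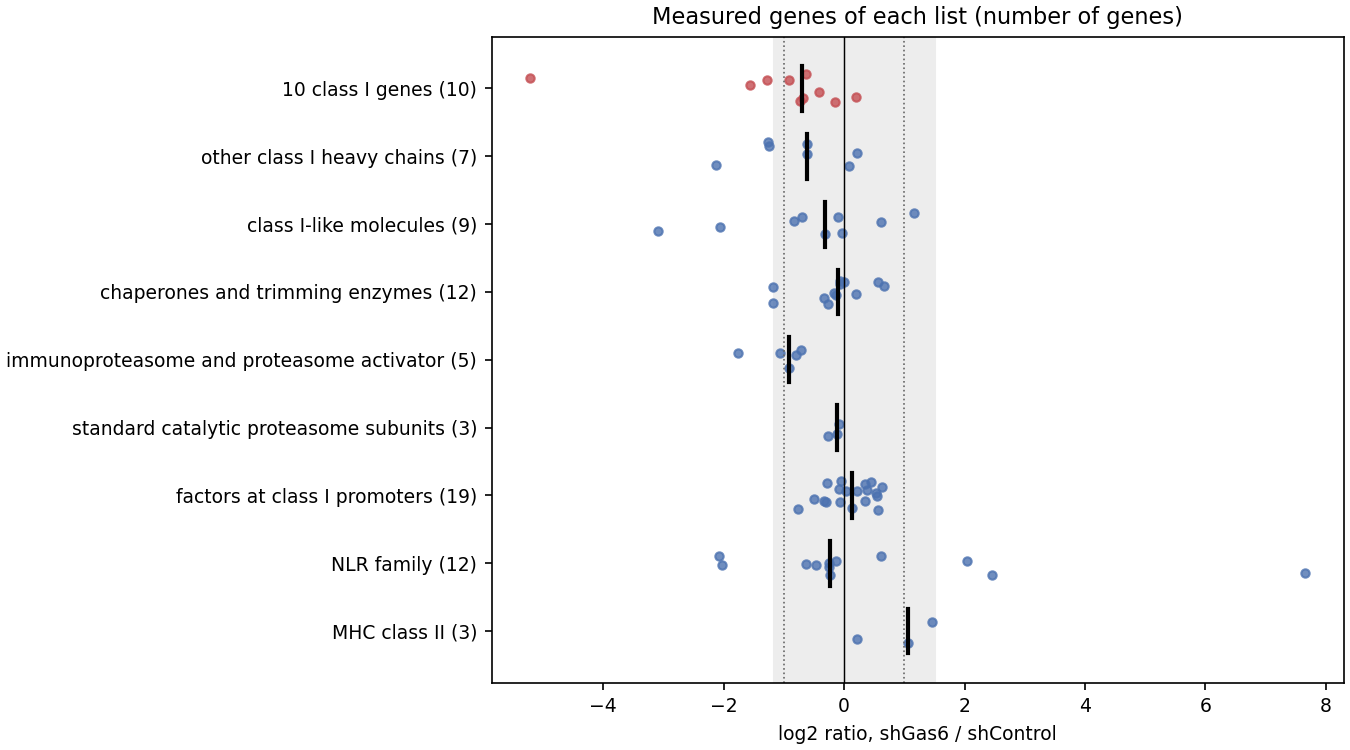
Log2 ratio of shGas6 over shControl for each measured gene of the set and of 8 related lists, with the number of genes in brackets, medians as black bars, dotted lines at 2-fold and the 5th to 95th percentile of all measured genes in grey. The medians are -0.70 for the 10 class I genes, -0.91 for the immunoproteasome and activator and 0.12 for the promoter factors. The NLR gene at 7.65 is Nlrp6, with 0 counts in shControl, so its place depends on the pseudocount.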

How the data were processed

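Poly(A) RNA of 2 YTN16 cultures was sequenced, 1 library each, with a stranded kit per the labels' protocols. Trimmomatic and the build GRCm38 (mm10) are named in the submitters' processing notes. No source used here gives the aligner, counter, strand setting or annotation, so antisense reads cannot be told apart. Per the file headers, the authors deposited a raw read count, an FPKM and a TPM value per gene. Columns were assigned by name. The deposited counts were scaled with TMM over all genes (edgeR 4.0.16, R 4.3.3). Log2 ratios used a pseudocount of 0.5 on counts scaled to the mean library, and folds none. Intervals are exact (Clopper-Pearson) 95% binomial splits, or exact Poisson for TPM (scipy 1.17.1), and cover counting error only. PCR copies are not independent molecules. Genes that reached 1 CPM in either library count as measured, and a fold of 2 made a call, with no test. The deposited TPM, scaled by the authors for length and library, compared levels between genes. FPKM, scaled by the authors likewise, was an alternative with TPM (pseudocount 0.1). Named genes were the 10, every measured list gene past 2-fold or otherwise up to 4 per list with the largest log2 ratio, and 5 neighbours on each side of Nlrc5 and B2m. Other list genes and neighbours were named after their values were seen. One gene that the rule takes is not reported here. The genes and lists were chosen with earlier results of these data known. Positions came from RefSeq GRCm38.p6 by gene identifier (45675 of 45777 genes). On simulated Poisson counts for this comparison (12933 genes), 100% of the 50 genes changed 3-fold or 4-fold in each direction were called, and 92% to 96% of their intervals contained the simulated fold.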

Additional observations from a re-analysis of the deposited data

How the results depend on the processing

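Each of the 10 genes kept its direction when rescaled in 3 ways, with a pseudocount of 5, with the FPKM or TPM as deposited, and after subtraction of the median of the 50 nearest genes. Of 70 such values, 58 lay inside the gene's counting interval and 12 outside it, and none reversed. Nlrc5 ranged from -5.25 to -4.27, the latter with FPKM and its pseudocount of 0.1. The count of 3 genes at least 2-fold lower was 3 under these settings and with the whole interval past 2-fold, and by construction 7 at 1.5-fold and 1 at 4-fold. The summed log2 ratio of the 4 heavy chains (-0.73) was -0.71 with DESeq2 size factors and -0.77 with upper-quartile scaling, and that of all class I heavy chains (-0.76) was -0.73 and -0.80. These scalings moved the median of all genes by 0.02 and -0.04. Heavy chain per B2m was by construction the same in FPKM, so this was not a separate check. Of 128 counts over the other lists, 117 stayed within 1.5 times and 11 did not, 9 of them with another filter on low values and 2 for class II genes with TPM or FPKM. No paired analysis was possible because each group has 1 library. Depth limits Nlrc5 in shGas6, which rests on 43 counts.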

Other observations

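Molecules built like class I but with other ligands were mixed. Of 9 measured, 2 were lower and 1 was higher in shGas6 by 2-fold or more, and their median log2 ratio was -0.31. Among all measured genes, 6.19% were lower and 8.64% higher by that much. Cd1d1, which presents lipids to natural killer T cells, went from 5.04 CPM in shControl to 0.580 CPM in shGas6, 8.68-fold lower (5.93 to 13.1). Mr1, which presents vitamin B metabolites to mucosal T cells, was at 11.98 and 2.86 CPM, 4.19-fold lower (3.49 to 5.04). Azgp1, a secreted relative that needs no B2m, was at 8.40 and 18.8 CPM, 2.24-fold higher (1.99 to 2.51). The stress ligand Raet1e was at 27.7 and 25.7 CPM, with an interval that included a fold of 1.

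Nlrc5 was not the 1 lower gene of the NLR family. Nod1 and Nod2, sensors of bacterial cell wall fragments, were at 25.3 and 6.01 CPM and at 17.9 and 4.37 CPM, 4.21-fold (3.72 to 4.78) and 4.11-fold lower (3.55 to 4.77). Nod2 lies on chromosome 8 (88647315 to 88688474), as Nlrc5 does (94434335 to 94527272). The 732 measured genes of that chromosome other than Nlrc5 had a median log2 ratio of -0.17. Naip1 was at 15.7 and 64.2 CPM, 4.09-fold higher (3.79 to 4.43). Nlrp3 was at 0.315 and 1.76 CPM, and Nlrp6 had 0 and 101 counts, with a counting interval that starts at 26.4-fold higher. The list, which leaves out Nlrc5, held 12 measured NLR genes, of which 2 were lower and 3 higher by 2-fold or more. Shares over all measured genes were 6.19% lower and 8.64% higher. Ciita, the class II counterpart of Nlrc5, had 4 and 0 counts, both too few for a comparison. Of 10 class II genes, 3 were measured, all below 4 CPM, and 2 of them, H2-DMa and Cd74, were at least 2-fold higher (1.67 and 3.50 CPM, and 0.531 and 1.47 CPM). In the authors' TPM, H2-DMa was at 1.27 in both libraries.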
